A study of Rattus norvegicus with 28 samples.

Results

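The 5 genes described here mark inhibitory neurons of the rat brain. Gad1 (ENSRNOG00000000007) and Gad2 (ENSRNOG00000018200) encode the enzymes that make the inhibitory transmitter GABA. Pvalb (ENSRNOG00000006471), Sst (ENSRNOG00000001837) and Vip (ENSRNOG00000018808) mark major classes of interneuron. They were chosen by identifier, without use of their measured values, and all 5 were found among the 32623 gene rows of the deposited tables.

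RNA was measured by total RNA sequencing in 28 whole brains of inbred rats, to ask how genetic background interacts with sex and with the estrous cycle. The strain BN-Lx/Cub has a Brown Norway background and carries the polydactyly-luxate (Lx) mutation, while SHR/OlaIpcv rats develop high blood pressure spontaneously. Each strain gave 4 females at pre-estrus, 4 at estrus, 4 at post-estrus and 2 males. No treatment or age is given in the labels, and the extraction text speaks of alcohol-naive males although the sample labels name females and males. The labels call the libraries biological replicates. Inbred animals are genetically near-identical, so the spread between libraries of a group is that between brains and preparations, and the strains are compared through 1 inbred line each.

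Glutamate decarboxylase turns glutamate into GABA. The Gad1 enzyme is found throughout the neuron and makes most of the brain's GABA, while the Gad2 enzyme is bound to synaptic vesicles at axon terminals and is held in reserve for bursts of activity. Both are expressed by interneurons and by GABAergic projection neurons such as Purkinje cells and the spiny neurons of the striatum. Pvalb encodes the calcium buffer parvalbumin of fast-spiking basket and chandelier cells, and is also made by Purkinje cells. Sst encodes the peptide somatostatin, which in the cortex marks cells that inhibit dendrites and in the hypothalamus restrains growth hormone release. Vip encodes vasoactive intestinal peptide, which in the cortex marks interneurons that inhibit other interneurons and in the suprachiasmatic nucleus couples the cells of the circadian clock. In whole-brain RNA a lower value can come from fewer cells of a type or from less RNA per cell, and these cannot be told apart.

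Somatostatin and vasoactive intestinal peptide are textbook targets of cAMP signalling through the cAMP response element, and the element is shown here because both peptide genes are known for it. Promoters of all 5 genes, 300 bases each, were found by symbol among RefSeq sequences of the build GRCr8. The element's full form, TGACGTCA, reads the same on both strands and occurred in 1.83% of 33469 rat promoters of that length. The shorter form TGACGTC, searched on both strands and contained in the full form, occurred in 3.22%. It was added after the Vip promoter had been read. Windows of 30 bases around each match are given 5′ to 3′ on the + strand, with the element in capitals.
Sst, chr11:90461537-90461566: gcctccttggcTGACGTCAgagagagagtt
Vip, chr1:44470372-44470401: gatcaccactgTGACGTCtttcgaggagcc
The Vip window holds the shorter form, which begins at base -97 from the annotated start. In Sst the full form begins at 2 on the same scale, just past the annotated start. Neither form was in the 300 bases of Gad1, Gad2 or Pvalb, which says only that those letters were not in that window. The still shorter TGACG, contained in both forms and searched as well, occurred in 21.2% of promoters. Beside Sst and Vip it was in Pvalb, from base -241, and not in Gad1 or Gad2. Levels of Sst and Vip across libraries are compared further on, and nothing about binding was measured.

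Libraries held 43410562 to 90667237 counts each, of which spike-in RNAs took 1.46% to 6.05%. The 8 most abundant genes of the tables took between 34.8% and 50.7% of the gene counts. Their share was 46.5% ± 2.48 in BN-Lx females and 41.4% ± 3.07 in SHR females (SD, n = 12 each). RNA composition thus differed between the females of the strains and is taken up beside each result that it touches. In the males the mean share was 44.6% in BN-Lx and 43.8% in SHR (n = 2 each). The sample descriptions end in b35 (15 libraries) or b37 (13 libraries), a suffix whose meaning is not given. Both BN-Lx males are b35, whereas the SHR males have 1 library of each. The suffix was fitted as a term beside the 8 groups. Between b37 and b35 none of the 5 genes passed edgeR's quasi-likelihood test, against 0.0551% of all genes. No gene names stand beside the identifiers in the files, so other markers of inhibitory neurons and of other brain cells, 93 symbols in all, matched 0 identifiers and were not tested. The tissue label was therefore checked only through these 5 genes, each of which was present in every library.

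All 5 genes passed the filter on low counts, and none shared an identical set of counts with another row. Rounded expected counts per library were 7204 to 20484 for Gad1, 7118 to 13048 for Gad2, 1144 to 9500 for Pvalb, 456 to 2129 for Sst and 448 to 854 for Vip. At these depths counting error was small beside the spread between brains for every gene of the set. Levels are compared between genes only per length, in the deposited TPM, each gene's per-length share of the transcripts of its library. Pvalb stood highest, with a mean of 111 TPM over the 28 libraries, rank 278 of the 24392 genes with any TPM. Gad1 followed with 32.5 TPM (rank 947), Sst with 22.7 TPM (rank 1436), Gad2 with 17.0 TPM (rank 1960) and Vip with 4.22 TPM (rank 6959).

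Pvalb was the highest and Vip the lowest of the 5 in all 28 libraries. The order between them was not fixed. In 18 libraries it ran Gad1, Sst, Gad2, in 8 libraries Gad1, Gad2, Sst, and in 2 libraries Sst, Gad1, Gad2. Sst and Gad2 thus were neighbours whose levels overlapped, with 22.7 ± 7.88 TPM for Sst and 17.0 ± 4.24 TPM for Gad2 (SD, n = 28). The authors' gene length, which weights isoforms by use, was constant for Gad2 (5561 bases), Pvalb (537 bases) and Sst (613 bases). It moved by 1.77% across libraries for Gad1 and by 1.99% for Vip.

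All levels below are CPM, counts relative to the library size after scaling by TMM factors, which suit the comparison of 1 gene between libraries. Gad1 and Gad2 varied least. The coefficient of variation over the 28 libraries was 11.6% for Gad1, 13.1% for Gad2, 18.0% for Vip, 26.5% for Pvalb and 32.0% for Sst. The highest library exceeded the lowest by 1.58-fold for Gad1 and 1.70-fold for Gad2, against 5.74-fold for Pvalb and 3.29-fold for Sst. The Pvalb range was 3.13-fold without its lowest library, SHR male replicate 1. With group and suffix taken out, the biological coefficient of variation was 12.9% for Gad1, 14.1% for Gad2, 17.0% for Vip, 27.1% for Pvalb and 32.6% for Sst. The variation of Pvalb was above that of 92.6% of the 500 genes nearest to it in level, and that of Sst above 93.8% of its 500 neighbours. The same percentage was 37.6% for Gad1, 47.4% for Gad2 and 44.8% for Vip. In this pooled estimate the transcripts of parvalbumin and somatostatin were more variable than those of either GABA enzyme, but not in every group: at estrus in BN-Lx the coefficient of variation was 8.20% for Pvalb, 11.2% for Gad1 and 9.99% for Gad2, and between the 2 BN-Lx males Pvalb and Sst lay closest together.

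**Figure D1:**
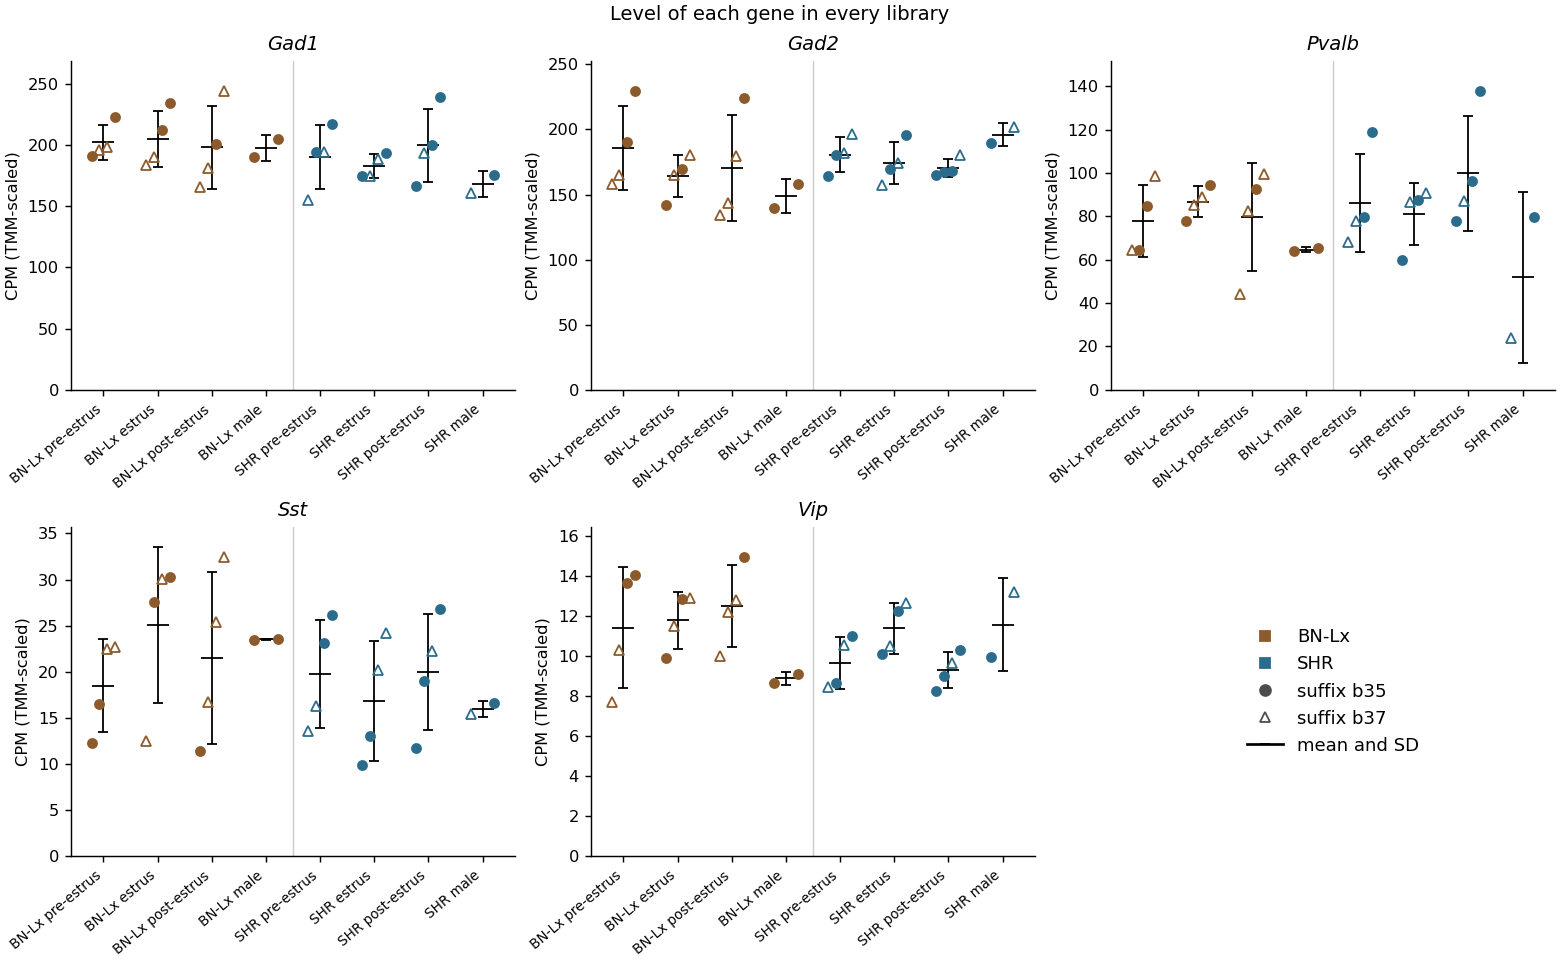
TMM-scaled CPM of each gene (vertical axis) in every library of the 8 groups (horizontal axis), brown for BN-Lx and blue for SHR, filled circles for b35 and open triangles for b37. Bars show the group mean and SD. The groups overlap for every gene in the females, and single libraries stand low for Pvalb (24.0 CPM in an SHR male) and Sst (12.5 CPM at estrus in BN-Lx).

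Between the strains in females, none of the 5 genes passed the test of edgeR (quasi-likelihood, Benjamini-Hochberg adjustment over all genes), while 9.51% of the 18134 genes tested did. The median log2 fold change of the 5, SHR over BN-Lx, was -0.10, and that of all genes tested 0.02. Vip came nearest to the threshold. In the 12 BN-Lx females it was 7.70 CPM at the lowest, 12.5 at the median and 15.0 at the highest. In the 12 SHR females it was 8.25, 10.2 and 12.7 CPM in the same order. The ranges overlapped, and 6 of the BN-Lx females lay above the highest SHR female. Mean levels were 11.9 ± 2.09 and 10.1 ± 1.42 CPM (SD, n = 12 each). The fitted level in SHR was 0.84 times that in BN-Lx (95% interval 0.734 to 0.964), with an unadjusted p of 0.0151 and an adjusted p of 0.112 in edgeR's quasi-likelihood test. Vip was 1 of the 3734 genes (20.6% of all) with an unadjusted p under 0.05.

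The Vip value, and whether it passed, changed with the libraries used and with the model, and those changes were not tested. Among the b35 libraries alone the log2 fold change was -0.41 (SE 0.11) and passed edgeR's quasi-likelihood test (adjusted p = 0.0393), as did 9.71% of all genes there, while among the b37 libraries it was -0.09 (SE 0.13, adjusted p = 0.905). Leaving out 1 BN-Lx pre-estrus female, replicate 5, also brought Vip past the threshold (log2 fold change -0.29, edgeR adjusted p = 0.0329). That female had the lowest Vip of all 28 libraries (7.70 CPM), so leaving it out by itself raises the BN-Lx level. The share of all genes that passed in that fit is not given here. Among the b35 libraries BN-Lx post-estrus is a single brain, which had the highest Vip of all 28 libraries (15.0 CPM). With the share of the 8 most abundant genes added to the model the Vip value was -0.08 (SE 0.13).

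Gad1 was 202 ± 22.8 CPM in BN-Lx females and 191 ± 22.5 CPM in SHR females (SD, n = 12 each). The lowest, median and highest values were 166, 197 and 244 CPM for BN-Lx, and 155, 194 and 239 CPM for SHR, so the ranges lay almost on top of each other. The log2 fold change was -0.10 (95% interval -0.24 to 0.04; edgeR adjusted p = 0.459). Gad2 averaged 174 ± 29.97 CPM in BN-Lx females and 175 ± 12.3 CPM in SHR females, with a fold change of 1.00 (95% interval 0.899 to 1.12; edgeR adjusted p = 0.992). The means of this enzyme lay close together within that interval. Its spread was not alike: BN-Lx females ran from 135 through a median of 168 to 230 CPM, and SHR females from 158 through 172 to 196 CPM. That contrast in spread was seen after the values were known and was not tested.

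Pvalb was 81.6 ± 16.5 CPM in BN-Lx females and 89.1 ± 21.3 CPM in SHR females. The lowest, median and highest BN-Lx females had 44.0, 85.0 and 99.7 CPM, and the SHR females 59.9, 86.7 and 138 CPM. The medians nearly coincided and the top of the SHR range came from 2 libraries, at 119 and 138 CPM. The fold change was 1.06 (95% interval 0.843 to 1.33; edgeR adjusted p = 0.850). Sst was 21.7 ± 7.63 CPM in BN-Lx females, from 11.4 through a median of 22.6 to 32.4 CPM, and 18.8 ± 5.85 CPM in SHR females, from 9.87 through 19.6 to 26.8 CPM. Its fold change was 0.90 (95% interval 0.679 to 1.19; edgeR adjusted p = 0.746). These intervals are wider than those of Gad1 and Gad2, and they show neither equality nor a difference. Within the b35 and b37 libraries the log2 fold changes were -0.09 and -0.08 for Gad1, -0.16 and 0.14 for Gad2, 0.12 and 0.0192 for Pvalb, and 0.0656 and -0.24 for Sst, so the signs of Gad2 and Sst differed between the subsets.

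RNA composition moved with several of these genes. Adding the share of the 8 most abundant genes as a covariate put both Gad1 and Sst past the threshold of edgeR's quasi-likelihood test, lower in SHR females. The log2 fold change of Gad1 was then -0.26 (SE 0.086, edgeR adjusted p = 0.0362), and Sst reached -0.79 (SE 0.22, edgeR adjusted p = 0.0164). Under that model 20.8% of all genes passed, so the background rose as well. The sign of Pvalb turned (log2 fold change -0.35, SE 0.20, adjusted p = 0.217). The share ran from 43.2% to 50.7% in BN-Lx females and from 34.8% to 45.9% in SHR females, so the strains overlapped in it only in part. Scaling by library size alone moved the median of all genes from 0.02 to 0.15 on the log2 scale and gave Gad1 a value of 0.04 in place of -0.10.

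**Figure D2:**
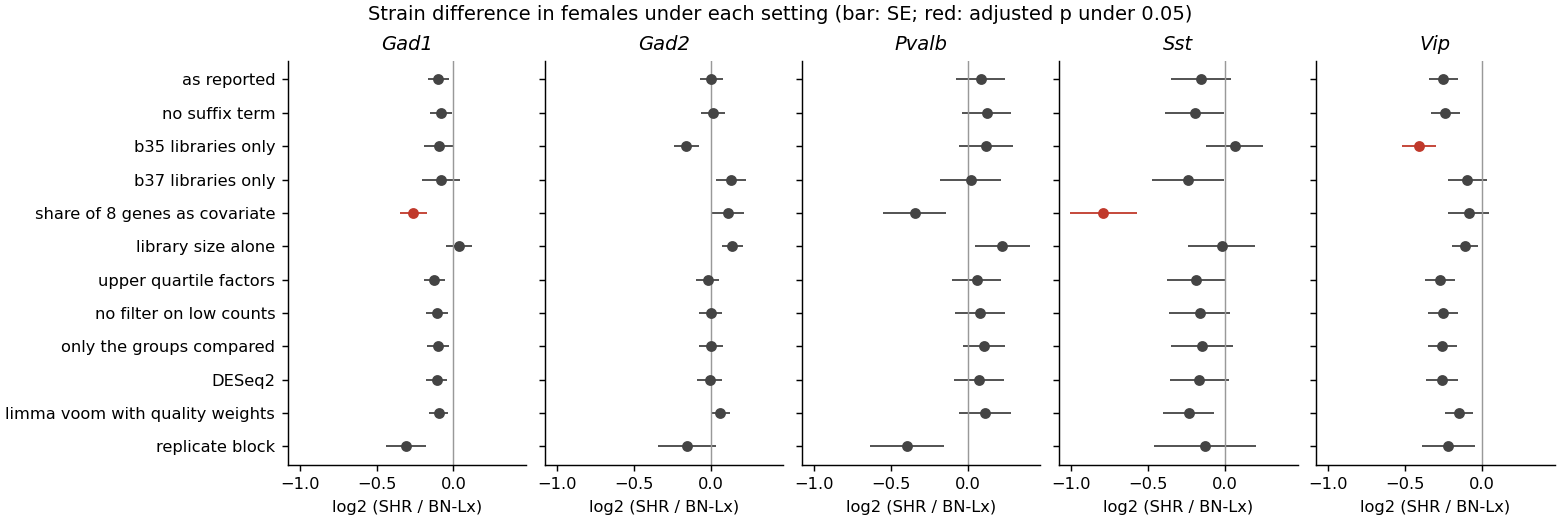
Log2 fold change of SHR over BN-Lx in females (horizontal axis) for each gene under the reported model and each alternative (vertical axis), with bars of 1 SE and red points where the adjusted p is under 0.05. Red points are Gad1 and Sst with the share of the 8 most abundant genes in the model and Vip in the b35 libraries. The signs of Gad1, Gad2, Pvalb and Sst turn under at least 1 setting, whereas Vip stays at or below -0.08.

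In males the strain comparison rests on 2 animals a side. None of the 5 genes passed edgeR's quasi-likelihood test, against 0.8% of all genes tested. The 2 males of a strain lay wholly above or below the 2 of the other strain for 4 of the 5 genes, all but Pvalb, and for 58% of all genes tested, so such a separation is common here. Gad2 was 140 and 158 CPM in the BN-Lx males and 190 and 202 CPM in the SHR males. The fold change was 1.36 (95% interval 1.04 to 1.78), with an unadjusted p of 0.0279 and an adjusted p of 0.434 from edgeR. Gad2 was the 1 gene of the 5 with an unadjusted p under 0.05, against 10.1% of all genes. Gad1 was 205 and 190.1 CPM in the BN-Lx males and 161 and 176 CPM in the SHR males, and its fold change was 0.88 (95% interval 0.696 to 1.13).

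The peptide genes in males also came with wide intervals. Vip was 9.11 and 8.67 CPM in the BN-Lx males and 13.2 and 9.94 CPM in the SHR males, a log2 fold change of 0.43 (95% interval -0.06 to 0.93), which was 0.16 with the first SHR male left out and 0.71 with the second left out. Sst was 23.4 and 23.6 CPM in the BN-Lx males and 15.4 and 16.6 CPM in the SHR males, a log2 fold change of -0.66 (95% interval -1.65 to 0.34). Both intervals include 0. Pvalb was 65.4 and 63.9 CPM in the BN-Lx males, and 24.0 and 79.7 CPM in the SHR males. The SHR male at 24.0 CPM, replicate 1, was the lowest of all 28 libraries, and with it left out the log2 fold change went from -0.27 to 0.30.

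**Figure D3:**
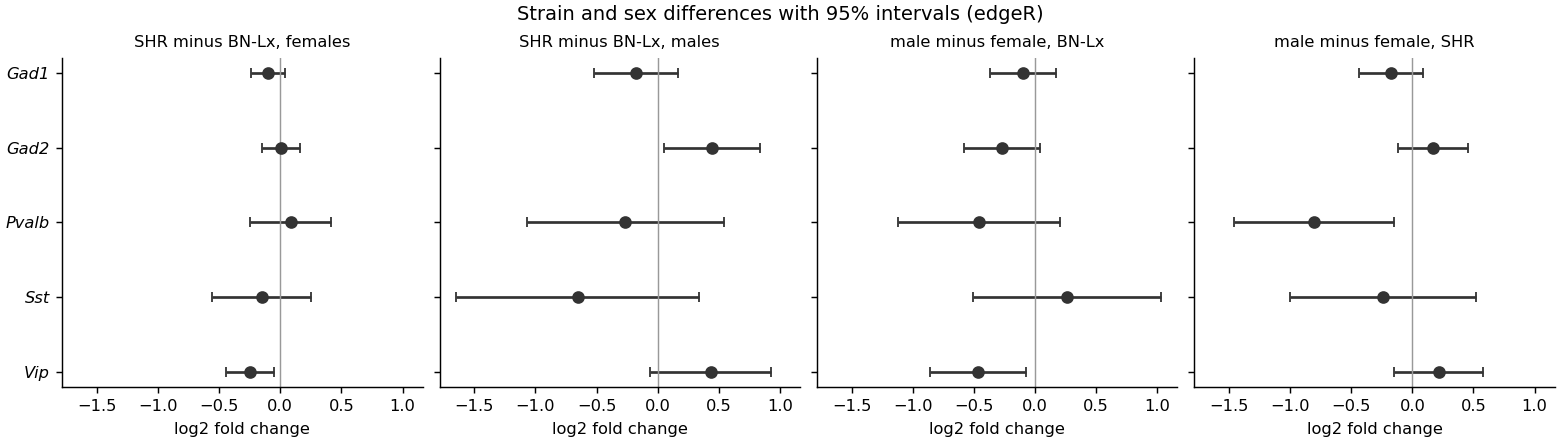
Log2 fold changes (horizontal axis) with 95% intervals for the 5 genes (vertical axis) between strains in females and males and between sexes in each strain. In none of the 4 panels did a gene pass the adjusted threshold. Intervals are narrowest for Gad1 and Gad2 in females and widest for Sst and Pvalb in the comparisons with 2 males.

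Between males and females, none of the 5 genes passed edgeR's quasi-likelihood test in either strain. The test called 0.0331% of all genes in each, which is 6 genes. In BN-Lx the males had 9.11 and 8.67 CPM of Vip, below the female median of 12.5 CPM but inside the female range of 7.70 to 15.0 CPM. The log2 fold change, male over female, was -0.47 (95% interval -0.86 to -0.08), with an unadjusted p of 0.0217 and an adjusted p of 0.843. Gad2 gave -0.27 (95% interval -0.58 to 0.04) and Pvalb -0.46 (95% interval -1.12 to 0.20) in the same comparison. Gad1 gave -0.10 (95% interval -0.37 to 0.18) and Sst 0.26 (95% interval -0.51 to 1.03). Both BN-Lx males carry the same suffix and the same number in the sample description, and other BN-Lx animals carry each of them as well.

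In SHR the gene nearest to the threshold was Pvalb. Its males had 24.0 and 79.7 CPM, and the females ran from 59.9 through 86.7 to 138 CPM, so 1 male lay below every female and the other inside their range. The log2 fold change was -0.81 (95% interval -1.46 to -0.15), with an unadjusted p of 0.0177 and an adjusted p of 1 from edgeR. Without the male at 24.0 CPM it was -0.19, so that 1 brain set most of the difference. In the same library Gad2 was the highest among the SHR animals (202 CPM), Vip was the highest among them (13.2 CPM) and Gad1 the second lowest (161 CPM). The 8 most abundant genes took 45.4% of its counts, near the top of the range of the other SHR libraries (34.8% to 45.9%). What part that share has in these values was not tested. Gad1 gave a log2 fold change of -0.17 (95% interval -0.44 to 0.09), Gad2 0.17 (95% interval -0.12 to 0.46), Sst -0.24 (95% interval -1.002 to 0.52) and Vip 0.21 (95% interval -0.15 to 0.57). The Vip value became -0.08 without the same male.

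Whether the sex difference itself differed between strains was tested as an interaction. For Vip the male-to-female log2 fold change was higher by 0.68 in SHR than in BN-Lx (95% interval 0.15 to 1.22; unadjusted p = 0.0149, edgeR adjusted p = 0.784). Leaving out SHR male replicate 1 gave 0.41, and leaving out replicate 2 gave 0.96. For Gad2 it was higher by 0.44 (95% interval 0.01 to 0.86; unadjusted p = 0.0431, adjusted p = 0.784). The other 3 genes gave -0.08 for Gad1, -0.35 for Pvalb and -0.50 for Sst, each with an interval on both sides of 0. No gene of the 18134 passed this test (0%), and 632 (3.49%) had an unadjusted p under 0.05. DESeq2 called 3 genes and limma 0.

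Stage of the estrous cycle left no difference past the threshold in these genes. In the edgeR test for any difference among the 3 stages, adjusted p-values ran from 0.977 to 0.999 in BN-Lx and were 1 for all 5 genes in SHR. Tests of each pair of stages over both strains gave an adjusted p of 1 for every gene, with 244 to 425 of all genes at an unadjusted p under 0.05 and 0 called by edgeR, 0 to 8 by DESeq2 and 0 to 2 by limma. The same tests called 0% of all genes: 589 genes (3.25%) had an unadjusted p under 0.05 in BN-Lx and 114 (0.629%) in SHR, and none of these were among the 5. In BN-Lx DESeq2 called 3 genes and limma 0, whereas in SHR DESeq2 called 5 genes and limma 1, none of them among the 5 described here. Single-stage comparisons of the strains called none of the 5 either, against 2.5% of all genes at pre-estrus, 2.24% at estrus and 2.5% at post-estrus. Vip at post-estrus had the lowest unadjusted p of the 5 there. The BN-Lx females had 15.0, 12.8, 12.2 and 10.0 CPM and the SHR females 9.64, 8.25, 10.3 and 9.02 CPM, which overlapped by 1 library a side. The log2 fold change was -0.47 (95% interval -0.82 to -0.12; unadjusted p = 0.0113, edgeR adjusted p = 0.2), and 12.6% of all genes had an unadjusted p under 0.05. It was -0.22 with the share of the 8 most abundant genes in the model, -0.25 with library size alone and -0.70 in the b35 libraries. In the b35 libraries the BN-Lx side at post-estrus is a single brain, the one at 15.0 CPM.

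The levels by stage show how large the spread within a stage was. Vip in BN-Lx was 11.4 ± 3.01 CPM at pre-estrus, 11.8 ± 1.43 at estrus and 12.5 ± 2.04 at post-estrus (SD, n = 4 each). In SHR it was 9.66 ± 1.30, 11.4 ± 1.27 and 9.31 ± 0.883 CPM in the same order. In SHR the estrus females had 12.7, 12.3, 10.5 and 10.1 CPM, which overlapped the pre-estrus females at 8.66, 10.5, 8.44 and 11.0 CPM. The post-estrus females at 9.64, 8.25, 10.3 and 9.02 CPM overlapped both only in part. A test of any difference among stages for Vip in SHR had an unadjusted p of 0.155 in edgeR.

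Sst in BN-Lx was 18.5 ± 5.06 CPM at pre-estrus, 25.1 ± 8.48 at estrus and 21.5 ± 9.31 at post-estrus (SD, n = 4 each). The single libraries show how the brains of a stage were spread. At pre-estrus they had 12.2, 16.5, 22.5 and 22.6 CPM, at estrus 12.5, 27.6, 30.04 and 30.2 CPM, and at post-estrus 11.4, 16.7, 25.4 and 32.4 CPM. The highest brain exceeded the lowest by 1.85-fold at pre-estrus, 2.42-fold at estrus and 2.84-fold at post-estrus. In SHR Sst was 19.8 ± 5.88, 16.8 ± 6.54 and 19.9 ± 6.31 CPM. Within the 15 b35 libraries alone, Sst passed the stage test in BN-Lx (edgeR adjusted p = 0.0441) and the test of stage by strain (adjusted p = 0.0198), where 15.5% and 30% of all genes passed. Those libraries hold only 5 BN-Lx females: 12.2 and 16.5 CPM at pre-estrus, 27.6 and 30.2 at estrus and 11.4 at post-estrus, where the lone brain is taken to vary like the other groups. The b37 estrus female at 12.5 CPM does not share that pattern.

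Pvalb in BN-Lx was 78.1 ± 16.6, 86.7 ± 7.11 and 79.8 ± 24.9 CPM at pre-estrus, estrus and post-estrus (SD, n = 4 each). In SHR it was 86.2 ± 22.5, 81.1 ± 14.3 and 99.8 ± 26.5 CPM. At post-estrus the SHR females had 138, 96.5, 86.9 and 78.0 CPM, and the BN-Lx females 99.7, 92.8, 82.7 and 44.0 CPM, so single brains set both the highest and the lowest female value at this stage. Gad1 averaged 202 ± 14.3, 205 ± 23.0 and 198 ± 33.9 CPM in BN-Lx, and 190.4 ± 26.0, 183 ± 9.73 and 199.9 ± 29.97 CPM in SHR. Gad2 was 186 ± 32.3, 164 ± 16.4 and 171 ± 40.7 CPM in BN-Lx, and 181 ± 13.2, 174 ± 16.1 and 170.3 ± 6.96 CPM in SHR. For neither enzyme did the stage means of a strain differ by more than the largest SD among its stages.

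No test of stage by strain passed for any of the 5 genes (edgeR adjusted p = 0.971 for each), and 0% of all genes passed it, with 268 (1.48%) at an unadjusted p under 0.05. DESeq2 called 1 gene and limma 0.

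Ratios of these genes within a library do not depend on how libraries are scaled, since both members of a ratio share it. The per-length ratio of Gad2 to Gad1 averaged 0.498 ± 0.0926 in BN-Lx females and 0.533 ± 0.0731 in SHR females (SD, n = 12 each). Per length, Gad1 thus stood at about 2 times the level of Gad2 in whole brain. That figure rests on the authors' gene lengths, 5561 bases for Gad2 and a median of 3263 bases for Gad1. The 2 BN-Lx males had 0.393 and 0.477, inside the range of their females (0.338 to 0.642). The 2 SHR males had 0.722 and 0.620, one above every SHR female and the other within their range (0.405 to 0.674). SHR males exceeded SHR females by 1.27-fold on the log-scale mean, with an exact two-sided permutation p of 0.0549 and an adjusted p of 0.613 over 20 ratio tests. The difference of the sex effects between strains was 0.52 on the log2 scale (exact permutation over 8281 arrangements, p = 0.0553, adjusted p = 0.128 over 4 ratios), a test chosen after the values were seen. The permutation exchanged males and females within each strain, so it supposes no sex effect in either strain. It therefore does not isolate a difference between the strains.

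The interneuron markers were also set against the sum of both enzymes. Pvalb stood at 2.17 ± 0.406 times that sum in BN-Lx females and at 2.46 ± 0.468 times in SHR females (SD, n = 12 each; permutation p = 0.127, adjusted p = 0.613). Over all libraries this ratio ran from 0.731, in SHR male replicate 1, to 3.48, in SHR post-estrus replicate 13. Per length, by the authors' gene lengths, Pvalb thus stood above the sum of both GABA enzymes in all libraries but the first of these. The Vip ratio was lower in SHR females by 0.18 on the log2 scale (permutation p = 0.136, adjusted p = 0.613), and the Sst ratio by 0.13 (permutation p = 0.578, adjusted p = 0.731). None of the 20 tests of strain, sex and stage passed, and the lowest adjusted p was 0.613. The 8 tests of sex set 2 males against 12 females, where the smallest exact permutation p is 0.011, so none of them could pass alone after adjustment over 20 tests.

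**Figure D4:**
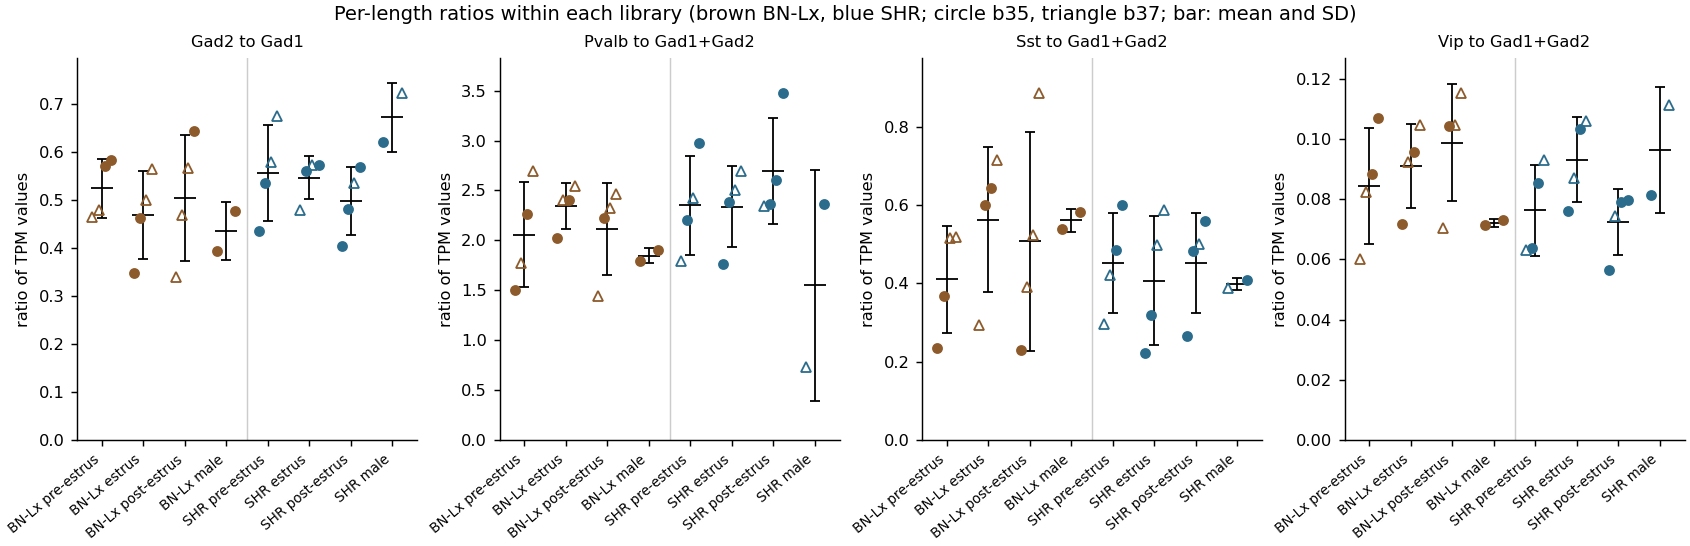
Per-length ratios within each library (vertical axis, ratio of TPM values) by group (horizontal axis), brown for BN-Lx and blue for SHR, circles for b35 and triangles for b37, with the group mean and SD. The SHR males have the highest and the fourth highest Gad2 to Gad1 ratios (0.722 and 0.620), and 1 of them the lowest Pvalb ratio (0.731).

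The 10 pairs of genes were compared within each strain over its 14 libraries, which differ in stage and sex. Of these 20 correlations of log2 CPM, 1 passed. In BN-Lx, Sst was low where Gad2 was high (r = -0.758, permutation p = 0.00153, adjusted p = 0.0306; rho = -0.648, permutation p = 0.0143, adjusted p = 0.0868). Brains with the highest Gad2, at 230 and 224 CPM, had among the lowest Sst, at 12.2 and 11.4 CPM. Without the 2 libraries farthest from the median of Gad2 the r was -0.506. Leaving out the ends of the Gad2 range can by itself weaken r, so this does not tell how far the relation rested on them. It was -0.917 in the 7 b35 libraries and -0.433 in the 7 b37 libraries. In SHR the same pair gave r = -0.422 (permutation p = 0.131, adjusted p = 0.292; rho = -0.371, p = 0.191), and the difference between strains was not tested. Over all 28 libraries the pair had r = -0.653. Of the 13994 other genes that averaged 1 CPM or more, 14.7% had a lower r with Sst and 4.48% a lower r with Gad2. Values this low were thus common for Sst.

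The 2 GABA enzymes showed no correlation past the threshold. Gad1 and Gad2 had r = 0.0075 in BN-Lx (permutation p = 0.979, adjusted p = 0.979; rho = -0.0198, p = 0.951) and r = -0.319 in SHR (permutation p = 0.268, adjusted p = 0.488; rho = -0.279, p = 0.335). Without the 2 farthest libraries the values were -0.0633 and -0.249. The correlation of Gad1 with Pvalb was 0.678 in SHR (permutation p = 0.00816, adjusted p = 0.0544; rho = 0.736, p = 0.00384, adjusted p = 0.0768) and 0.711 without the 2 farthest. In BN-Lx that pair had r = 0.480 (permutation p = 0.0809, adjusted p = 0.202; rho = 0.433, p = 0.121), which became -0.0482 without the 2 farthest libraries. These relations missed the adjusted threshold.

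Vip was negatively related to the other genes in 6 of its 8 correlations, and none of the 8 passed the adjusted threshold. With Pvalb in SHR it had r = -0.647 (permutation p = 0.00533, adjusted p = 0.0533; rho = -0.455, p = 0.104), and r was -0.288 without the 2 farthest libraries. With Gad1 in SHR it had r = -0.626 (permutation p = 0.0161, adjusted p = 0.0562; rho = -0.631, p = 0.0174), with -0.583 without the 2 farthest. With Gad2 in BN-Lx the sign was positive, at r = 0.626 (permutation p = 0.0169, adjusted p = 0.0562; rho = 0.653, p = 0.0137), with 0.442 without the 2 farthest. Sst and Vip, whose promoter windows are printed above, had r = -0.550 in BN-Lx (permutation p = 0.0433, adjusted p = 0.124; rho = -0.556, p = 0.0422) and -0.156 in SHR (permutation p = 0.591, adjusted p = 0.695; rho = -0.174, p = 0.554).

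**Figure D5:**
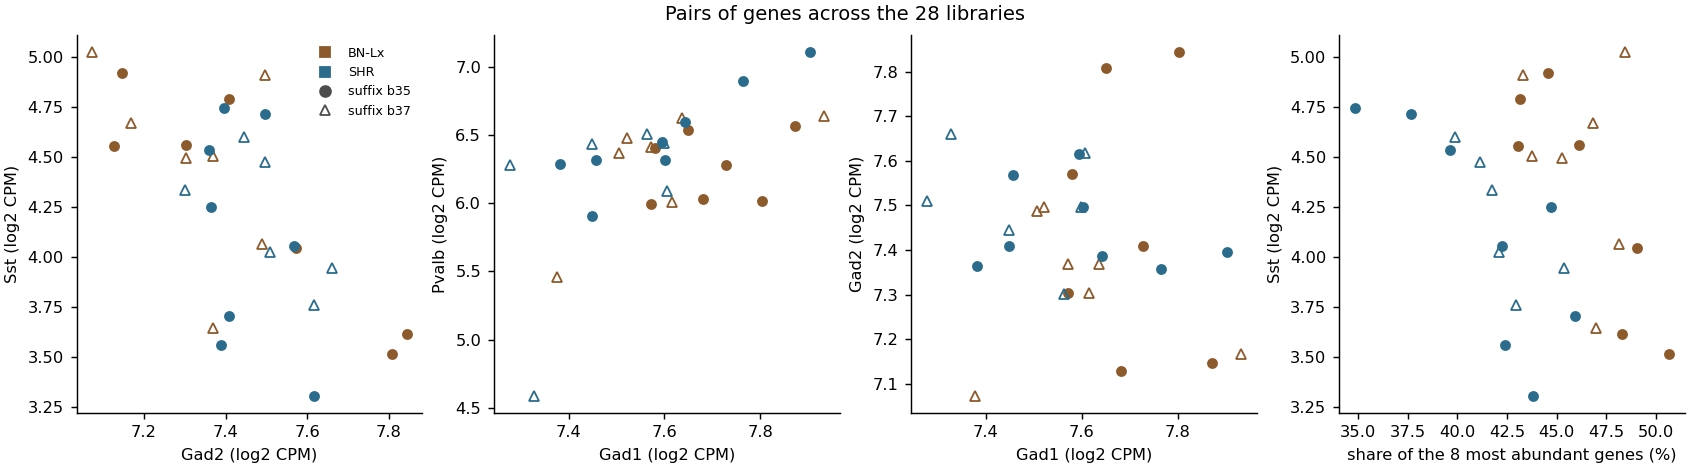
Pairs of log2 CPM values over the 28 libraries, brown for BN-Lx and blue for SHR, circles for b35 and triangles for b37: Sst against Gad2, Pvalb against Gad1, Gad2 against Gad1, and Sst against the percent of counts held by the 8 most abundant genes. Sst falls with Gad2 in BN-Lx (r = -0.758) and with the share of the 8 genes in SHR (r = -0.747), while Gad1 and Gad2 form a cloud without a trend in BN-Lx (r = 0.0075).

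RNA composition moved with the same genes. Across the 14 SHR libraries Sst was lower where the 8 most abundant genes took more of the counts (r = -0.747, permutation p = 0.00168, adjusted p = 0.0168 over 10 relations; rho = -0.846, adjusted p = 0.0024), and r stayed at -0.630 without the 2 farthest, -0.770 in b35 and -0.785 in b37. In BN-Lx the Sst value was -0.645 (permutation p = 0.0141, adjusted p = 0.0335; rho = -0.512, adjusted p = 0.127), with -0.883 in b35 and -0.246 in b37. SHR Gad1 gave r = -0.694 (permutation p = 0.00633, adjusted p = 0.0316; rho = -0.565, adjusted p = 0.0998) and SHR Pvalb r = -0.658 (permutation p = 0.0167, adjusted p = 0.0335; rho = -0.670, adjusted p = 0.0362). Vip ran the other way in BN-Lx, with r = 0.655 (permutation p = 0.0124, adjusted p = 0.0335; rho = 0.670, adjusted p = 0.0362) and 0.515 without the 2 farthest. Gad2 passed in neither strain, at 0.482 in BN-Lx and 0.293 in SHR, and neither did Vip in SHR (0.386) or Gad1 (-0.189) and Pvalb (-0.114) in BN-Lx. The relations were looked at after the values were known. TMM factors had already been applied, and what part the share has in the pair correlations was not tested.

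The genes whose levels followed these 5 most closely over the 28 libraries can be given only by identifier, among the 13994 other genes that averaged 1 CPM or more. As descriptions across libraries that share strain, stage and composition, these values carry no test. Sst followed a very broad pattern: 1417 genes had r of at least 0.8 with it and 302 had r of at most -0.8, and its nearest gene, ENSRNOG00000018454, reached 0.970. The matching numbers were 129 and 3 for Gad2, 82 and 0 for Pvalb, 6 and 1 for Gad1 and 1 and 0 for Vip. Pvalb's nearest gene, ENSRNOG00000000010, reached 0.944, and the highest r was 0.889 for Gad2, 0.843 for Gad1 and 0.806 for Vip. After group means and the suffix were taken out, Sst still had 2364 genes at r of at least 0.8 and 775 at -0.8 or below, and 1408 of the 1417 genes and 280 of the 302 genes were among them. This is 99.4% and 92.7% of the first sets, and 59.6% and 36.1% of the second.

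The genes opposite to Sst were long. Their median length in the authors' tables was 3339.8 bases, against 2273 bases for all genes of that level, and 0.993% of them were under 1000 bases against 11.2% of all. The genes that followed Sst (613 bases) had a median of 2123 bases, and 12.6% of them were under 1000 bases. The genes that followed Gad2 (5561 bases) had a median of 3275 bases, with none of the 129 under 1000 bases. Followers of Pvalb, the shortest of the 5 at 537 bases, had a median of 2708 bases, with 9.76% under 1000 bases, so the lengths of a gene and of its followers did not match throughout. What part transcript length has in these patterns was not tested. Members were seldom near each other in these orders. Pvalb ranked 404 of 13994 in the order of likeness to Gad1 (r = 0.559 over 28 libraries), Gad2 ranked 9005 in that order (r = -0.160), and Gad2 stood at rank 11933 in the order for Sst (r = -0.653).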

How the data were processed

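Per the labels' protocols, total RNA of whole brain was made into stranded libraries after ribosomal RNA removal. The submitters' processing notes name cutadapt and RSEM. Versions, aligner, genome build and annotation: not given in the sources used here. A deposited matrix holds expected counts from RSEM, of which 88.2% were whole numbers, and it matched the per-library files within 0.5. The authors' files also hold TPM, used for levels between genes and for ratios, FPKM, which was not used, and gene lengths.

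Expected counts were rounded, and the 92 spike-in rows were left out. Genes were kept by filterByExpr (count minimum 10), which left 18134. A robust quasi-likelihood fit in edgeR 4.0.16 (R 4.3.3) had a term for each of 8 groups and 1 for the suffix, with TMM factors, 19 residual degrees of freedom and Benjamini-Hochberg adjustment per comparison, called at 0.05. Standard errors were derived from the F statistic. CPM are TMM-scaled, and log2 CPM used a prior count of 2. Ratios and correlations used permutation tests (scipy 1.17.1 and numpy 2.4.6). As reported, the ratio tests of sex and of stage were exact, and that of strain in females used 100000 resamples. Correlations used 100000 random permutations throughout. Alternatives were covariates, suffix subsets, scaling, filters, blocks, DESeq2 1.42.0, limma 3.58.1 and leaving out each library. The fit was tested on simulated data for the strain comparison in females with 18134 genes. It found 55.2% of the 1.5-fold changes, 85.1% of the 2-fold changes and 89.4% of the 4-fold changes, with 9 of 162 calls false. Apart from the changed genes, the simulated libraries held no difference in group, suffix or RNA composition. These rates therefore do not cover such differences in the real libraries. The 5 genes were set by identifier. The rule that all of them are reported, and the gene lists, were chosen with earlier results of these data known.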

Additional observations from a re-analysis of the deposited data

Results flagged for a closer look

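Among 54 groups of 4 libraries checked for a single library far from the rest, 3 stood out, and chance alone gives about 1 in 20. Pvalb was 59.9 CPM in SHR estrus replicate 5, against 86.5 to 90.8 CPM in the other 3 females of that group, and the gap took 0.860 of the whole range. Sst was 12.5 CPM in BN-Lx estrus replicate 2, against 27.6 to 30.2 CPM in the others, with a gap of 0.851 of the range. The per-length ratio of Gad2 to Gad1 was 0.479 in SHR estrus replicate 6, against 0.560 to 0.572 in the others, with a gap of 0.869 of the range.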

How the results depend on the processing

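None of the 5 genes was called in any of the 15 comparisons as reported. Apart from leaving out libraries, the settings gave 699 values counted as the same as reported, in side of the threshold and, where they had one, in direction. Stage tests and counts of genes called have no direction, and the highest r with another gene was counted as the same without a check. The rest were as follows. The cause was not tested in any case. With the share of the 8 most abundant genes as a covariate, 2 of the 5 genes were called between strains in females, Gad1 (-0.26) and Sst (-0.79), with 20.8% of all genes, and Pvalb turned to -0.35. There Sst was 0.0937 for sex in SHR, and sex by strain gave 0.0671 for Gad1 and 0.0504 for Sst. In the b35 libraries 1 gene was called between strains in females (Vip, -0.41, with 9.71% of all genes), 1 for any stage in BN-Lx (Sst, with 15.5%) and 1 for stage by strain (Sst, with 30%). There Gad2 was -0.16 and Sst 0.0656 between strains in females, Pvalb 0.30 between males and 0.18 for sex by strain, and Vip -0.0147 for sex in SHR. Ratios there gave -0.0153 for Gad2 to Gad1 and 0.0645 for Sst between strains, and 0.0486 for Sst for sex in SHR. Gad2 between strains in females was -0.00545 by DESeq2 and -0.0179 with upper quartile factors. Library size alone gave Gad1 0.0362 between strains in females and 0.0287 for sex in BN-Lx. A fit of only the groups compared gave Pvalb 0.29 between males.

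Same-numbered libraries of different groups did not deviate together: over 18 pairs the correlation of deviations ran from -0.447 to 0.343 with a median of -0.12, and 0 of 24 libraries was most like a same-numbered one. With the replicate number as a block (6 residual degrees of freedom) none of the 5 genes was called in any comparison, against 0.529% of all genes for strain in females. The blocked values between strains in females were -0.15 for Gad2 and -0.40 for Pvalb. For sex in SHR the block gave 1.72 for Sst and -0.21 for Vip, and for sex by strain 0.21 for Gad1 and 0.0284 for Pvalb. With the description number as a block, Vip was -0.0373 for sex in SHR and Gad1 0.15 for sex by strain.

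Leaving out 1 library at a time gave 2113 values counted as the same in side and, where they had one, in direction. Gad2 between strains in females ranged from -0.0268 to 0.0532, Vip from -0.29 to -0.21 (1 gene called without BN-Lx pre-estrus replicate 5, otherwise 0), Pvalb between males from -1.35 to 0.30, Vip for sex in SHR from -0.0784 to 0.47 and Pvalb for sex by strain from -1.46 to 0.19. BN-Lx pre-estrus replicate 5 held the lowest Vip of all libraries, and the share of all genes called without it is not given here.

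The 1 correlated pair of Gad2 and Sst in BN-Lx fell to 0 pairs by Spearman's rho (-0.648), in b37 (-0.433) and without the 2 farthest libraries (-0.506). In b35 that pair (-0.917) was not called and Gad1 with Pvalb in SHR was (0.904). Gad1 and Gad2 in BN-Lx were -0.0198 by rho, -0.0633 without the 2 farthest, -0.104 in b35 and -0.154 in b37, Gad1 and Pvalb in BN-Lx -0.0482 without the 2 farthest, and Sst and Vip in SHR 0.323 in b37. The b37 libraries hold no BN-Lx male, and the description number block allows no comparison of strains. Having 2 males a strain, a single inbred line a strain and unmatched gene names limit what these libraries can show.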

Other observations

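The deposited TPM, which scale each library to a fixed total of all RNAs, gave other levels than TMM-scaled CPM between strains. Pvalb in females was 103 ± 32.1 TPM in BN-Lx and 132 ± 35.3 TPM in SHR (SD, n = 12 each). Gad1 was 31.2 ± 5.71 TPM in BN-Lx and 34.9 ± 6.42 TPM in SHR. Gad2 was 15.7 ± 4.47 and 18.4 ± 3.70 TPM, Sst 22.3 ± 8.24 and 23.5 ± 9.01 TPM, and Vip 4.29 ± 1.17 and 4.25 ± 0.918 TPM in the same order. The share of counts held by the 8 most abundant genes was lower in SHR females (41.4% against 46.5%), and its part in these values was not tested.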
